A study of Mus musculus with 12 samples.

Results

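The comparison described here is the late response of wild-type mouse B cells to stimulation of their antigen receptor. It sets the 2 arrays of cells cultured with anti-IgM for 12 h against the 2 arrays of cells at 0 h, which makes 4 of the 12 arrays of the series. The arrays were chosen by their titles alone, and every gene with a usable probe set entered the comparison. The cells were splenic follicular B cells of male 129SvEv mice aged 8 weeks, and the sort took cells that were B220+, AA4.1-, high for CD23 and intermediate for CD21. The 12 h group was ZFXwt (wild type for Zfx, a zinc finger transcription factor encoded on the X chromosome) and was held for 12 h in medium with 10 µg/mL of anti-IgM, an antibody against the IgM form of the receptor that clusters it on the cell surface. The 0 h group had the same genotype and was taken at the start of the culture. No culture of 12 h without the antibody was analysed here, so the antibody, the time in culture and any loss of cells in it cannot be told apart. The other 8 arrays hold ZFXwt cells at 2 h and cells labelled Zfx cko at 0, 2 and 12 h, and the sources used here do not name the Cre driver behind that label.

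The B cell receptor is a membrane immunoglobulin paired with the signalling chains encoded by Cd79a and Cd79b. Its crosslinking activates the kinases Lyn, Syk and Btk, and through them calcium, MAP kinase, NF-kB and PI3 kinase signals. A resting follicular B cell is small, with little cytoplasm. In the hours after receptor stimulation it enlarges, makes ribosomes, raises its metabolism and moves from G0 into G1, and DNA synthesis is known to come later.

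Signals are the authors' linear intensities, and differences are given in log2(signal + 16) ± SE as 12 h minus 0 h, with n = 2 arrays in each group. A gene was called when its adjusted p (limma, Benjamini-Hochberg over 12190 genes) was under 0.05, and a gene is said to have risen or fallen, or to be higher or lower, where it was called. RNA was hybridized in duplicate per the labels' protocols, nothing says that the duplicates came from different mice, and the p-values then reflect the spread between arrays that may be technical duplicates. In log2 units the duplicates correlated across genes at 0.9747 at 12 h and 0.9759 at 0 h.

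Both groups lay on the same side of a division seen in the control probe sets. The 3′ signal for 18S ribosomal RNA was 10670 to 10890 at 12 h and 6636 to 7305 at 0 h, while it was 1022 to 1299 on the 6 arrays of ZFXwt 2 h, Zfx cko 2 h and Zfx cko 12 h. For actin the ratio of 5′ to 3′ signal, which falls when RNA is shorter or its amplification is less complete, was 2.11 to 2.27% at 12 h and 3.27 to 3.33% at 0 h. On those 6 arrays the ratio was 8.41 to 19.1%. The part that this gap between 12 h and 0 h plays in any result was not tested. The 2 h signals quoted below come from the other side of the division and share their 0 h arrays with the 12 h comparison, so they are given as values with no test.

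Markers of B cells were abundant at both times, though 6 of 9 tested were called lower at 12 h and 1 higher. Cd79b read 10630 and 11040 at 12 h, against 22330 and 22940 at 0 h, and Ms4a1, which encodes CD20, read 4845 and 4672 at 12 h, against 9791 and 9832 at 0 h. The follicular markers were lower after culture: Fcer2a, which encodes the CD23 of the gate, read 1613 and 1493 at 12 h, against 5107 and 4630 at 0 h, and Cr2, which encodes its CD21, read 373 and 430 at 12 h, against 4406 and 3322 at 0 h. Markers of several other cell types were lower after culture too. The summed signal of 15 T and NK cell markers was 1174 and 1013 at 12 h, against 4013 and 3944 at 0 h, with 8 of 13 tested called lower and 0 higher. For 12 neutrophil markers the sum was 8541 and 7648 at 12 h, against 22840 and 23430 at 0 h, with 9 of 11 called lower, and S100a8, a calcium-binding protein of neutrophils, made up most of it. The sum of 17 monocyte, macrophage and dendritic cell markers was 5825 and 6131 at 12 h, against 8855 and 9117 at 0 h, with 6 of 13 called lower. That of 8 erythroid markers was 837 and 878 at 12 h, against 1810 and 2020 at 0 h, with 3 of 6 called lower. The sum of 7 megakaryocyte and platelet markers was not lower, at 421 and 413 at 12 h, against 364 and 395 at 0 h. Of 4 tested, 1 was called higher and 0 lower. In bulk RNA, fewer cells of a type and less RNA per cell cannot be told apart.

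**Figure D1:**
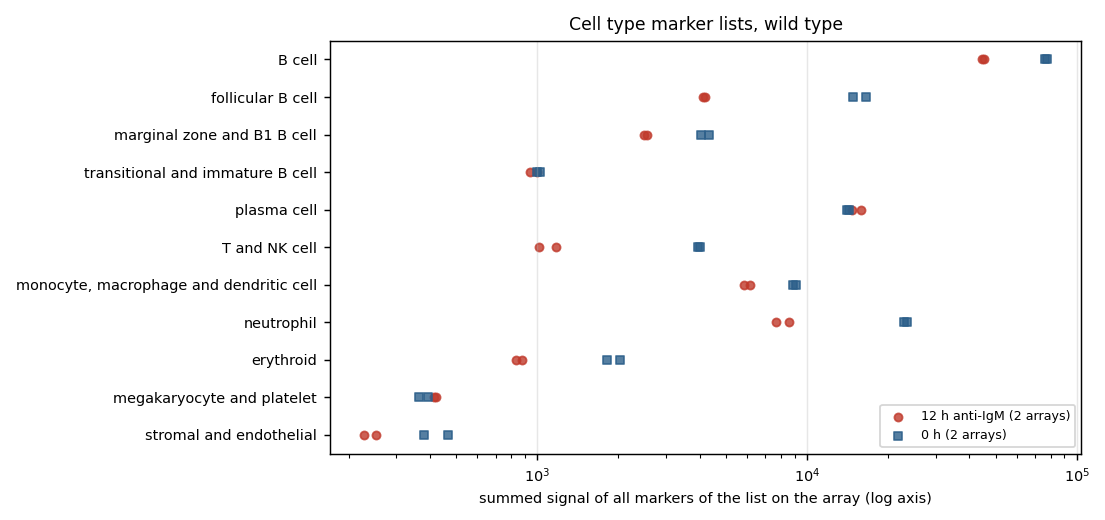
Summed signal of each cell type marker list on each array (log axis), for the 2 arrays at 12 h (circles) and the 2 at 0 h (squares). The follicular, T and NK cell, neutrophil, monocyte and erythroid sums were lower on both 12 h arrays than on both 0 h arrays, and the B cell sum was 44680 and 45450 at 12 h against 76100 and 77740 at 0 h.

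Of the 12190 genes tested, 5842 were called (47.9%). At 12 h 3025 genes were higher (24.8%) and 2817 lower (23.1%), and the arrays of the groups did not overlap for 8760 genes (71.9%). A change of at least 2-fold was called for 975 higher genes (8.0%) and 1093 lower genes (8.97%). Changes of over 4-fold comprised 91 rises and 181 falls. The median difference over all genes was 0.03. When each array was instead scaled to its median, that median became 0.16 and the called genes split into 3701 higher and 2292 lower, so the balance of rises and falls depends on the scaling. With so many genes called, the counts for gene groups below are to be read against these percentages.

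The largest rises brought together genes of several kinds. These rises, and the largest falls below, were picked among called genes whose groups did not overlap. Adm, which encodes the peptide hormone adrenomedullin, had signals of 1514 and 1720 at 12 h, against 77.6 and 70.2 at 0 h (4.18 ± 0.15, adjusted p = 5.6e-11). Snhg3, a noncoding RNA that hosts small nucleolar RNAs in its introns, had signals of 5430 and 5322 at 12 h, against 348 and 386 at 0 h (3.82 ± 0.10, adjusted p = 5.1e-12). Its level at 2 h was 718 and 763, well below its level at 12 h. Il2ra, the alpha chain of the interleukin-2 receptor, had signals of 379 and 374 at 12 h, against 21.1 and 22.6 at 0 h (3.38 ± 0.23, adjusted p = 3.1e-08). For each of these genes both 12 h arrays stood far above both 0 h arrays.

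Other genes of that group had low signals at 0 h. Bcl6b, a zinc finger repressor related to Bcl6, read 203 and 162 at 12 h, against 10.1 and 3.44 at 0 h (3.13 ± 0.31, adjusted p = 1.3e-06), and at 2 h it was still at 6.68 and 6.995. Macroh2a3, a macroH2A histone gene by its symbol, read 291 and 288 at 12 h, against 22.4 and 25.2 at 0 h (2.94 ± 0.35, adjusted p = 7.4e-06), with 12.2 and 4.84 at 2 h. Mmab, an enzyme of vitamin B12 metabolism, read 643 and 512 at 12 h, against 30.2 and 62.9 at 0 h (3.29 ± 0.25, adjusted p = 9.3e-08), with 23.8 and 17.5 at 2 h. The 2 h signals of Macroh2a3 and Mmab were below those of 0 h. In Zfx cko cells at 12 h Macroh2a3 read 17.25 and 28.79. Dim probe sets were left out by their mean over all 12 arrays, those of 12 h included. Macroh2a3 and Bcl6b may therefore have entered the comparison only through their 12 h signals. Ahr, the aryl hydrocarbon receptor, read 1020 and 1079 at 12 h, against 94.1 and 124 at 0 h (3.10 ± 0.16, adjusted p = 1.6e-09). Bcat1, which transaminates branched-chain amino acids, rose by 2.88 ± 0.19 (adjusted p = 2.3e-08), and Pogk, Hivep3, Vat1, Gng4, Comtd1 and Slco4a1 rose by 2.68 to 3.22.

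The largest falls included immediate early genes that were high at 0 h. Fos, a subunit of the AP-1 transcription factor, read 294 and 289 at 12 h, against 11100 and 11780 at 0 h (-5.22 ± 0.07, adjusted p = 4.0e-15). Fosb, a close relative, read 63.5 and 66.5 at 12 h, against 1069 and 1051 at 0 h (-3.73 ± 0.11, adjusted p = 1.3e-11). Dusp1, a phosphatase that inactivates MAP kinases, read 322 and 344 at 12 h, against 5305 and 5332 at 0 h (-3.93 ± 0.09, adjusted p = 2.3e-12). All of these were several-fold lower at 12 h on both arrays. Their 2 h signals, 7235 and 6465 for Fos and 2881 and 2843 for Dusp1, lay between those of 0 h and 12 h.

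Several other genes among the 20 largest falls encode negative regulators or proteins known from other cell types. Socs3, an inhibitor of cytokine signalling, read 39.8 and 49.0 at 12 h, against 1512 and 1302 at 0 h (-4.56 ± 0.25, adjusted p = 3.1e-09). Tsc22d3, the glucocorticoid-induced leucine zipper, read 164 and 152 at 12 h, against 1653 and 1679 at 0 h (-3.28 ± 0.11, adjusted p = 4.0e-11). Rasa3, a GTPase-activating protein for Ras and Rap, read 141 and 139 at 12 h, against 1560 and 1617 at 0 h (-3.36 ± 0.09, adjusted p = 7.9e-12). Both groups were tight for these genes. Cd2, an adhesion receptor of T cells that mouse B cells also carry, fell by 3.95 ± 0.11 (adjusted p = 7.9e-12), and Hdc, the histamine-forming enzyme, fell by 3.82 ± 0.31 (adjusted p = 1.7e-07). Cd2 belongs to the T and NK cell markers, whose sum was lower at 12 h as given above, and Lrg1, a glycoprotein made by neutrophils and liver, fell by 3.47 ± 0.34 (adjusted p = 1.0e-06) along with the neutrophil markers. The part of those cells in these falls was not tested.

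**Figure D2:**
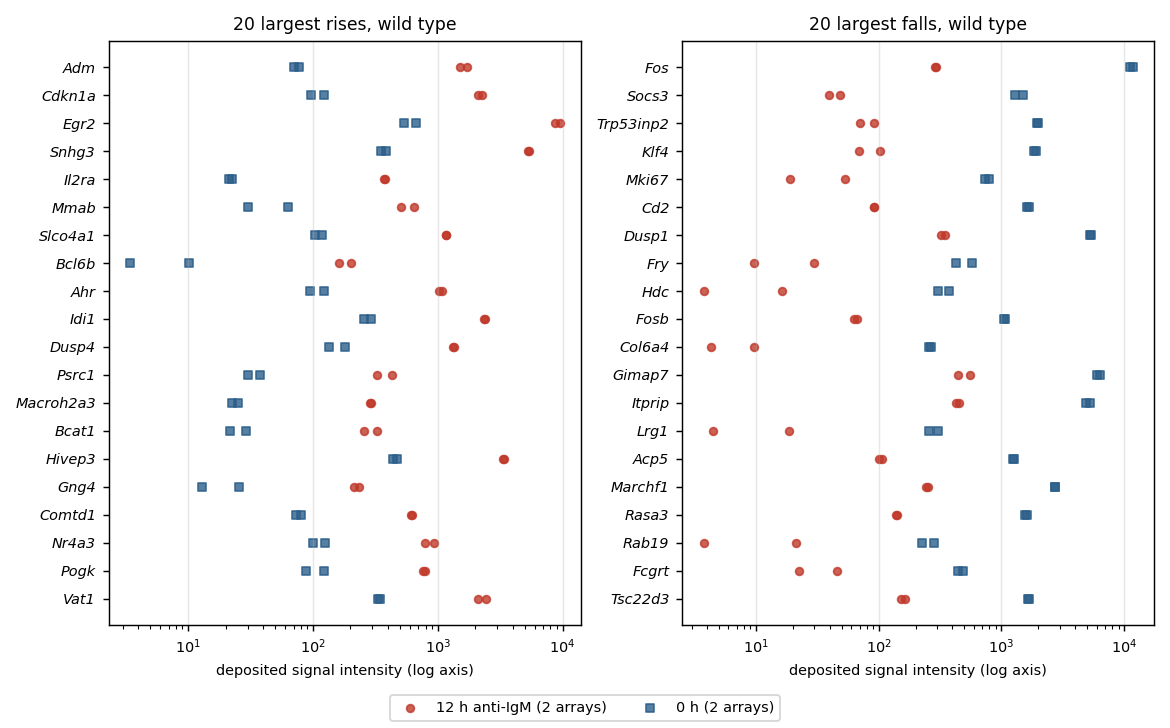
Deposited signal (log axis) of the 20 called genes with the largest rises (left panel) and the 20 with the largest falls (right panel), with 2 arrays at 12 h (circles) and 2 at 0 h (squares). For every gene shown the arrays of the groups do not overlap, which was part of the rule for choosing them; Fos, at the top of the falls, lies at 294 and 289 at 12 h and at 11100 and 11780 at 0 h.

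Genes of the receptor complex and its proximal kinases and adaptors were more often lower than higher. Of 25 tested, 14 were lower and 6 higher, with a median of -0.59. Syk, the kinase that binds phosphorylated Cd79 tails, read 3513 and 3268 at 12 h, against 9951 and 10150 at 0 h (-1.56 ± 0.07, adjusted p = 3.2e-10). Malt1, the protease of the complex that couples the receptor to NF-kB, fell by 1.60 ± 0.11 (adjusted p = 2.7e-08), and Rasgrp3, an activator of Ras, by 1.34 ± 0.07 (adjusted p = 3.1e-09). Vav3, an exchange factor for small GTPases, went the other way, with 1144 and 1103 at 12 h, against 371 and 303 at 0 h (1.70 ± 0.20, adjusted p = 6.3e-06). Cd79b fell by 1.06 ± 0.05 (adjusted p = 3.0e-10), whereas Cd79a, its partner chain, read 1254 and 1162 at 12 h, against 1363 and 1012 at 0 h, and did not pass the test (adjusted p = 0.81).

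Inhibitory receptors were mostly lower too. Of 21 tested, 14 were lower and 3 higher, with a median of -0.70. Siglecg, a sialic acid-binding inhibitory receptor, read 846 and 799 at 12 h, against 3976 and 3767 at 0 h (-2.21 ± 0.08, adjusted p = 1.1e-10). Cd22, of the same family, read 8236 and 8381 at 12 h, against 19390 and 20050 at 0 h (-1.25 ± 0.05, adjusted p = 1.5e-10). The 2 h signals of Cd22 were 1925 and 1838, lower than those at 12 h. Dok3, an adaptor that restrains receptor signalling, fell by 1.91 ± 0.08, Btla by 1.15 ± 0.05 and Fcgr2b, the inhibitory Fc receptor, by 0.66 ± 0.07. Pdcd1, which encodes PD-1, read 81.5 and 67.1 at 12 h, against 5.61 and 27.3 at 0 h (1.56 ± 0.35, adjusted p = 0.0019), a rise at low signal.

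Of 14 MAP kinase feedback genes 3 were higher and 3 lower (21.4% each), near the shares of all genes (24.8% and 23.1%). Dusp4, a nuclear MAP kinase phosphatase, read 1336 and 1357 at 12 h, against 136 and 182 at 0 h (2.97 ± 0.12, adjusted p = 1.3e-10). Dusp6, a phosphatase specific for ERK, read 108 and 142 at 12 h, against 743 and 829 at 0 h (-2.51 ± 0.16, adjusted p = 1.3e-08). Dusp4 and Dusp6, phosphatases of the same family, thus changed in opposite directions. Spry1 and Spred1, inhibitors of the Ras pathway, rose by 1.02 ± 0.21 and 0.97 ± 0.18.

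In the calcium and NFAT pathway, 9 of 19 tested genes were lower and 5 higher. The channel subunit Orai1 read 2205 and 2033 at 12 h, against 670 and 645 at 0 h (1.66 ± 0.08, adjusted p = 6.3e-10), and Rcan1, a calcineurin inhibitor that NFAT is known to induce, rose by 1.76 ± 0.10 (adjusted p = 2.9e-09). Itpr3, an inositol trisphosphate receptor, read 229 and 273 at 12 h, against 1509 and 1660 at 0 h (-2.59 ± 0.13, adjusted p = 1.7e-09). Itpr2 fell by 1.13 ± 0.10 and the calcium pump Atp2a3 by 1.31 ± 0.14. Nfatc2 also fell (-1.33 ± 0.23) by its brightest probe set, but another of its 3 probe sets was called higher.

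For NF-kB subunits and inhibitors the list held 8 higher and 6 lower genes of 19 tested. Rel, the c-Rel subunit, read 971 and 898 at 12 h, against 378 and 376 at 0 h (1.27 ± 0.08, adjusted p = 7.0e-09). Nfkbie, an inhibitor that NF-kB itself induces, rose by 1.34 ± 0.05 (adjusted p = 1.7e-10). Birc3, a ubiquitin ligase of the pathway, fell by 1.19 ± 0.09 (adjusted p = 1.1e-07), with 3147 and 3821 at 2 h, close to its 3474 and 3328 at 0 h. RGS proteins and G protein subunits were mostly lower, 10 of 16 against 4 higher. Rgs1, which damps chemokine receptors, read 76.9 and 37.0 at 12 h, against 291 and 305 at 0 h (-2.16 ± 0.20, adjusted p = 6.1e-07), and Rgs16 rose by 1.37 ± 0.29 (adjusted p = 0.0013).

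Immediate early transcription factors had split by 12 h. Of 22 tested, 8 were higher and 10 lower. Egr2 had 536 and 666 at 0 h, 6995 and 5736 at 2 h and 8682 and 9453 at 12 h (12 h minus 0 h 3.89 ± 0.12, adjusted p = 1.5e-11). Egr1, its relative, had 1725 and 1569 at 0 h, 10180 and 9775 at 2 h and 2944 and 2921 at 12 h (0.83 ± 0.06, adjusted p = 6.1e-08). Nr4a3, an orphan nuclear receptor, had 126 and 101 at 0 h, 8701 and 8942 at 2 h and 796 and 928 at 12 h (2.76 ± 0.10, adjusted p = 8.7e-11). Egr2 was highest at 12 h, while the other genes of this trio were highest at 2 h and remained above 0 h on both 12 h arrays. Nr4a1 had 1276 and 1452 at 0 h, 7939 and 7921 at 2 h and 1814 and 1831 at 12 h (0.42 ± 0.06, adjusted p = 9.0e-05). Fosl1 rose by 2.15 ± 0.27 and Jun fell by 2.20 ± 0.10.

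Myc, the transcription factor that drives growth in stimulated B cells, had 395 and 375 at 0 h, 4870 and 4505 at 2 h and 393 and 426 at 12 h. The 12 h arrays overlapped those of 0 h, and the difference did not pass the test (0.08 ± 0.12, adjusted p = 0.61). Of 11 tested genes of the MYC, MAX and MXD network, 1 was higher and 4 lower. Mlxip, a glucose-responsive partner of Mlx, fell by 1.51 ± 0.09 (adjusted p = 5.5e-09), and Mxd1, a MYC antagonist, by 0.90 ± 0.18 (adjusted p = 7.3e-04). Mnt rose by 0.38 ± 0.09 (adjusted p = 0.0023).

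**Figure D3:**
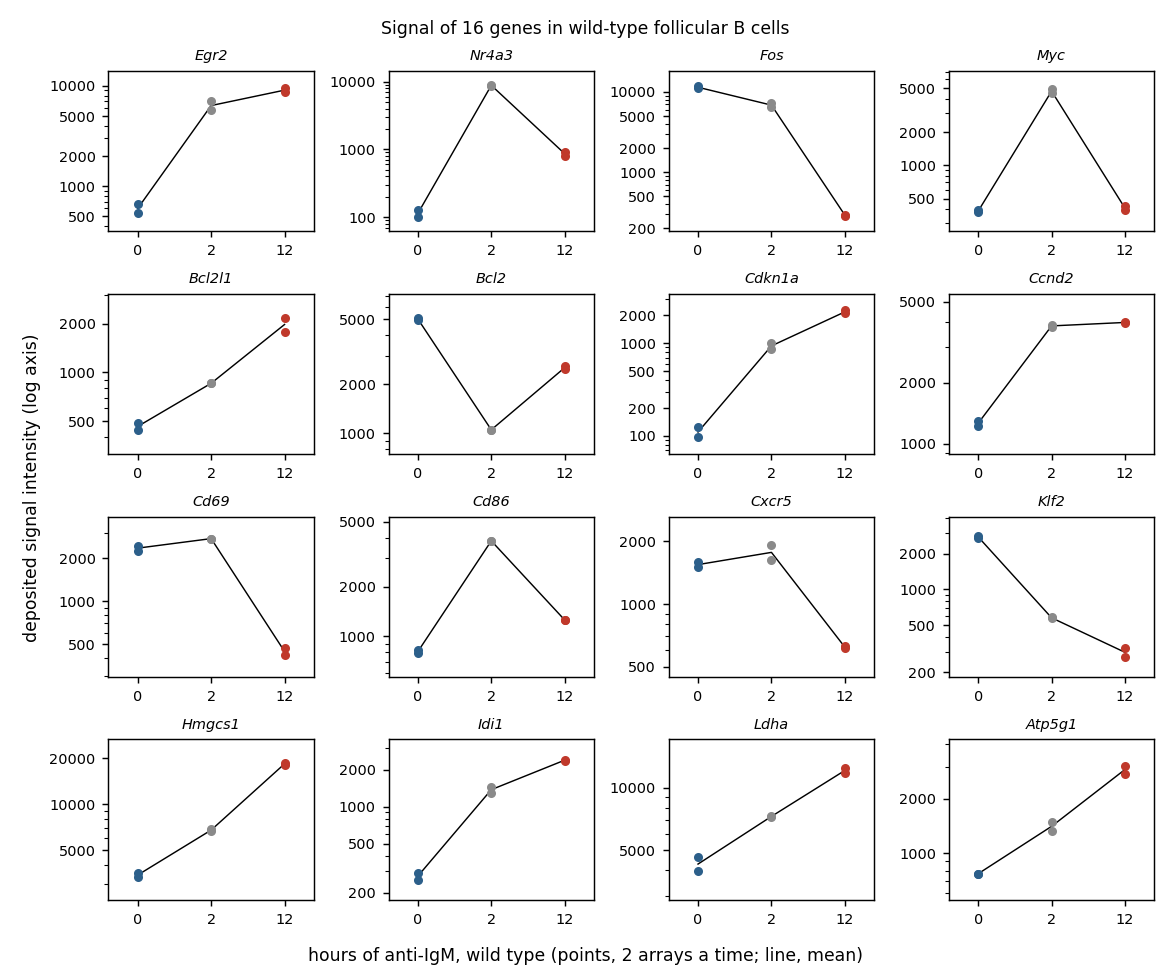
Signal of 16 genes in wild-type cells at 0, 2 and 12 h of anti-IgM (evenly spaced positions; points are the 2 arrays of a time, the line joins their means; log axes that differ between panels). Nr4a3, Myc and Cd86 are highest at 2 h, Egr2, Cdkn1a, Hmgcs1 and Ldha are highest at 12 h, and Fos and Klf2 are lowest at 12 h; the 2 h arrays lie on the other side of the control-probe division.

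Transcription factors of quiescence and of the follicular program fell. In the KLF and FOXO group 17 of 22 tested genes were lower and 2 higher, with a median of -0.95. Klf2, which keeps lymphocytes resting and recirculating, read 323 and 268 at 12 h, against 2725 and 2806 at 0 h (-3.16 ± 0.09, adjusted p = 1.3e-11). Klf6 fell by 2.13 ± 0.10 and Klf13 by 1.77 ± 0.10. Foxo1, a transcription factor that PI3 kinase signalling inactivates, read 1510 and 1298 at 12 h, against 3968 and 3623 at 0 h (-1.43 ± 0.09, adjusted p = 1.7e-08). Pik3ip1, an inhibitor of PI3 kinase, fell by 2.54 ± 0.10 (adjusted p = 1.6e-10). The groups did not overlap for these genes, nor for 71.9% of all genes tested.

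Of 27 tested factors of B cell identity and differentiation, 12 were lower and 7 higher. Ebf1, which specifies the B lineage, read 504 and 529 at 12 h, against 1640 and 1650 at 0 h (-1.64 ± 0.09, adjusted p = 4.0e-09), and 5 of its 5 probe sets were called lower. Irf4, which drives activation and later plasma cell formation, read 6778 and 7484 at 12 h, against 2561 and 2628 at 0 h (1.45 ± 0.05, adjusted p = 8.2e-11). Bcl6, the master regulator of germinal centre cells, fell by 1.34 ± 0.18 (adjusted p = 2.5e-05), Fli1 by 2.18 ± 0.15, Id2 by 2.18 ± 0.16 and Runx1 by 1.36 ± 0.13. Prdm1, the plasma cell factor Blimp-1, read 22.6 and 33.9 at 12 h, against 28.3 and 31.6 at 0 h, and did not pass the test. Zfx itself read 1013 and 962 at 12 h, against 982 and 1041 at 0 h (-0.03 ± 0.09), and did not pass the test either, but the mean of its 3 probe sets was called lower (-0.49, adjusted p = 0.033).

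Regulators of survival changed in opposite ways. Bcl2l1, which encodes Bcl-xL, read 2177 and 1777 at 12 h, against 442 and 487 at 0 h (2.05 ± 0.17, adjusted p = 2.3e-07). Bcl2, the survival protein of resting B cells, read 2480 and 2587 at 12 h, against 5121 and 4941 at 0 h (-0.99 ± 0.06, adjusted p = 6.9e-09), and at 2 h it was at 1054 and 1052. Neither gene's groups overlapped, which also held for 71.9% of all genes tested. Mcl1 read 13670 and 14680 at 12 h, against 16370 and 16630 at 0 h (-0.22 ± 0.05, adjusted p = 0.0015), and median scaling ended that call (-0.09, adjusted p = 0.20).

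Of 8 tested pro-death members of the family 3 were higher and 1 lower. Bcl2l11, which encodes Bim, read 8998 and 9831 at 12 h, against 3073 and 3388 at 0 h (1.54 ± 0.11, adjusted p = 3.7e-08), and 4 of its 5 probe sets were called higher. Bid rose by 1.73 ± 0.13 (adjusted p = 9.7e-08), and Pmaip1, which encodes Noxa, fell by 1.17 ± 0.22 (adjusted p = 5.3e-04). Bbc3, which encodes Puma, read 68.3 and 114 at 12 h, against 28.2 and 43.8 at 0 h (1.03 ± 0.33, adjusted p = 0.020), a call that was lost without either of 2 arrays. Among 22 tested p53 target and GADD45 genes, 8 were higher and 8 lower. Phlda3 and Plk3 rose by 1.61 ± 0.26 and 1.22 ± 0.11, and Plk2 and Gadd45g fell by 2.20 ± 0.13 and 1.41 ± 0.12.

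Of 21 tested G1 cyclins, kinases and E2F factors 7 were higher (33.3%, against 24.8% of all genes) and 4 lower, shares near the background, and the higher count ran from 6 to 11 over the alternatives. Ccnd2, the D cyclin that B cells induce on receptor stimulation, read 3985 and 3938 at 12 h, against 1229 and 1299 at 0 h (1.64 ± 0.06, adjusted p = 5.7e-11), with 7 of its 7 probe sets called higher. Cdk4, its kinase partner, read 2962 and 3190 at 12 h, against 1101 and 1223 at 0 h (1.39 ± 0.07, adjusted p = 1.5e-09), and Cdk6 rose by 1.22 ± 0.06 (adjusted p = 1.9e-09). Ccnd3, a sister D cyclin, read 185 and 163 at 12 h, against 408 and 462 at 0 h (-1.25 ± 0.14, adjusted p = 4.6e-06).

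CDK inhibitors and pocket proteins were lower in 6 of 8 tested and higher in 1, Cdkn1a. The count of lower members ran from 4 to 6 over the alternatives, and the calls of Rbl1, Rbl2 and Cdkn2c were each lost in at least 1 of them. Cdkn1b, which encodes p27, read 216 and 175 at 12 h, against 609 and 594 at 0 h (-1.56 ± 0.16, adjusted p = 1.6e-06). Cdkn2d, an inhibitor of CDK4 and CDK6, read 118 and 109 at 12 h, against 762 and 753 at 0 h (-2.58 ± 0.11, adjusted p = 4.3e-10). Cdkn1a, which encodes p21, had 96.9 and 123 at 0 h, 1015 and 857 at 2 h and 2103 and 2255 at 12 h (12 h minus 0 h 4.13 ± 0.14, adjusted p = 4.5e-11). Inhibitors of the same kinases thus lay on both sides of zero.

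Replication genes showed no common direction, with 9 of 45 tested higher (20%) and 10 lower (22.2%), near the shares of all genes (24.8% and 23.1%). Their median of -0.03 became 0.10 under quantile normalization and under median scaling. Pcna, the polymerase clamp, had 1870 and 2005 at 0 h, 12560 and 11990 at 2 h and 4265 and 4338 at 12 h (12 h minus 0 h 1.15 ± 0.06, adjusted p = 2.0e-09). Mcm2, a subunit of the replicative helicase, read 785 and 962 at 12 h, against 425 and 532 at 0 h, and did not pass the test (0.85 ± 0.51, adjusted p = 0.20). Its duplicates spread widely in other groups, with 302 and 769.7 at 2 h, and in the fit of only the groups compared the same difference was called higher (adjusted p = 0.0017). Fen1, Pold2 and Uhrf1 rose by 1.08 to 1.54, while Rrm2, the regulated subunit of ribonucleotide reductase, read 175 and 168 at 12 h, against 837 and 874 at 0 h (-2.22 ± 0.13, adjusted p = 4.3e-09).

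Mitotic kinases, spindle and kinetochore genes were lower in 18 of 33 tested and higher in 2, with a median of -0.87. The count of lower members ran from 10 to 19 over the alternatives. The summed signal of the 33 genes was not lower at 12 h, at 20360 and 20610, against 19910 and 20070 at 0 h. Mki67, a proliferation antigen, read 53.4 and 18.9 at 12 h, against 791 and 732 at 0 h (-3.98 ± 0.39, adjusted p = 1.0e-06). Ube2c, of the anaphase machinery, read 37.4 and 26.8 at 12 h, against 164 and 220 at 0 h (-2.11 ± 0.27, adjusted p = 1.6e-05). Outside that list, E2f8, a repressor of the E2F family, read 12.6 and 7.70 at 12 h, against 148 and 146 at 0 h (-2.65 ± 0.34, adjusted p = 1.5e-05). Psrc1, a microtubule-associated protein among the largest rises, read 328 and 427 at 12 h, against 37.8 and 30.1 at 0 h (2.97 ± 0.41, adjusted p = 3.4e-05).

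Ribosome assembly factors rose widely. The proteins of box C/D and H/ACA small nucleolar ribonucleoproteins, which modify ribosomal RNA, were higher in 13 of 14 tested and lower in 0, with a median of 1.23. Nhp2, an H/ACA core protein, read 14890 and 14710 at 12 h, against 3736 and 3538 at 0 h (2.02 ± 0.05, adjusted p = 2.3e-12). Fbl, the fibrillarin methyltransferase, read 4972 and 4938 at 12 h, against 1309 and 1439 at 0 h (1.84 ± 0.06, adjusted p = 5.6e-11). Factors of the small subunit processome and pre-40S particle were higher in 37 of 48 and lower in 0 (median 0.74), and pre-60S assembly factors higher in 42 of 51 and lower in 2 (median 0.91). Ppan, of the pre-60S particle, read 2556 and 2707 at 12 h, against 530 and 605 at 0 h (2.19 ± 0.09, adjusted p = 2.2e-10), and Wdr12 rose by 2.11 ± 0.15. At 2 h the list medians over 0 h were 1.80 for the small nucleolar ribonucleoproteins, 1.01 for the processome and 1.48 for pre-60S factors.

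Sequences upstream of 2 such genes are shown because they hold the E box CACGTG, a palindrome that MYC and related factors bind. They are the 100 bases before the RefSeq start in GRCm38.p6, 5′ to 3′ on the gene's strand, for Utp18 (processome; chr11:93885767-93885866, minus strand) and Wdr46 (processome; chr17:33940623-33940722, plus strand), with the E box in capitals:
Utp18: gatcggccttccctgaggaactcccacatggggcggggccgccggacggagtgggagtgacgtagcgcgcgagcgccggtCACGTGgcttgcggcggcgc
Wdr46: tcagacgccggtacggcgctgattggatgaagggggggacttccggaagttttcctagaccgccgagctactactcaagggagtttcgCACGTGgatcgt
The E box starts 20 bases before the start of Utp18 and 12 bases before that of Wdr46. They were chosen for the motif after the search. Utp18 rose by 1.09 ± 0.11 (adjusted p = 1.0e-06) and Wdr46 by 1.005 ± 0.099 (adjusted p = 1.2e-06). In windows of 250 bases before to 50 after a start, CACGTG was found for 11 of 40 processome genes with a window (27.5%), 10 of 42 pre-60S genes (23.8%) and 0 of 12 small nucleolar ribonucleoprotein genes. The share was 16.3% for genes higher at least 2-fold, 10% for genes lower at least 2-fold and 11.5% for all 9855 tested genes with a window. It was not particular to ribosome assembly, with 33.3% for aminoacyl-tRNA synthetase genes and 30% for genes of sterol synthesis and uptake. For RNA polymerase I and III genes it was 14.3%, and for cytosolic ribosomal proteins 10.8%. A match to these letters is a description of the sequence and not a measured binding site.

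The ribosomal proteins themselves did not follow the assembly factors. Of 77 genes for cytosolic ribosomal proteins, 42 could be tested, since the others lacked a probe set with that gene as its only symbol or lay below the filter. Of them 15 were higher and 5 lower, 0 by 2-fold, and the median of 0.09 turned to -0.02 under quantile normalization. Rpl14 read 1575 and 1632 at 12 h, against 916 and 950 at 0 h (0.77 ± 0.09, adjusted p = 7.8e-06), and Rps24 read 7261 and 7606 at 12 h, against 11690 and 11480 at 0 h (-0.64 ± 0.05, adjusted p = 1.2e-07), with 1 of its 6 probe sets called the other way. RNA polymerase I and III genes were higher in 16 of 33 and lower in 2 (median 0.33), with Polr3e at 1.84 ± 0.14 and Polr3k at 1.54 ± 0.07.

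**Figure D4:**
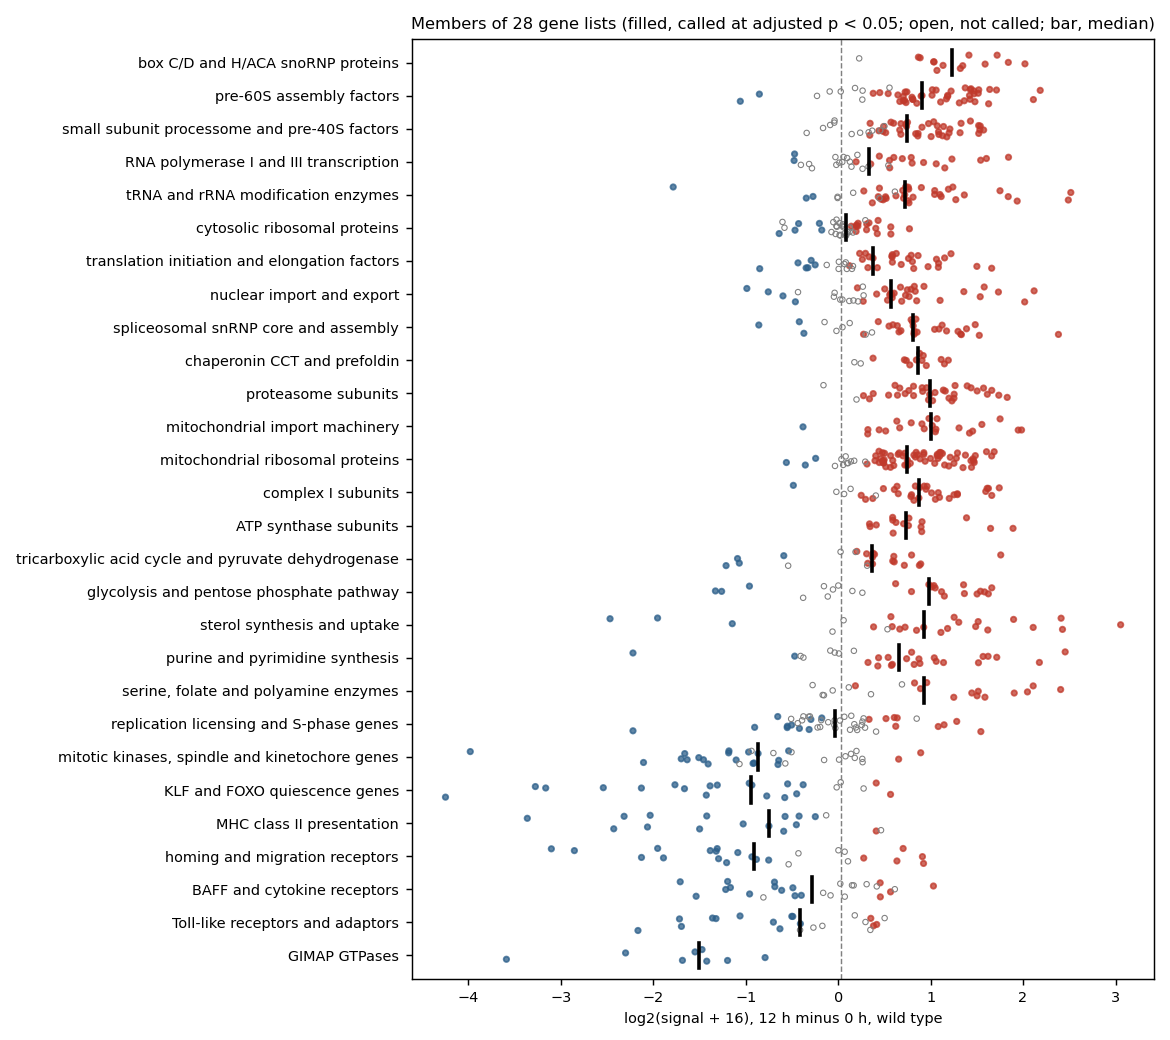
Difference in log2(signal + 16), 12 h minus 0 h, for each tested member of 28 gene lists (filled red, called higher; filled blue, called lower; open, not called; black bar, list median; dashed line, median of all genes). The lists of ribosome assembly, proteasome and mitochondrial genes lie mostly right of the dashed line, the lists for KLF and FOXO genes, homing receptors and GIMAP GTPases mostly left of it, and cytosolic ribosomal proteins around it.

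Enzymes that modify transfer and ribosomal RNA were higher in 32 of 40 tested and lower in 3 (median 0.73). Mettl1, the catalytic subunit of the transfer RNA methyltransferase that makes 7-methylguanosine, read 2055 and 1748 at 12 h, against 296 and 356 at 0 h (2.49 ± 0.11, adjusted p = 4.6e-10). Wdr4, its partner, read 1062 and 993 at 12 h, against 300 and 252 at 0 h (1.84 ± 0.10, adjusted p = 2.9e-09). Both subunits of that enzyme thus rose. Pop1, of RNase P and RNase MRP, rose by 2.52 ± 0.23, and Trmt61a by 1.94 ± 0.06.

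Aminoacyl-tRNA synthetases, which load transfer RNAs, were higher in 15 of 19 tested and lower in 1. Aars read 1207 and 1167 at 12 h, against 488 and 514 at 0 h (1.22 ± 0.09, adjusted p = 6.7e-08), and Mars1 rose by 1.07 ± 0.08. Vars was the lower one (-0.78 ± 0.09, adjusted p = 6.0e-06). The letters TGATGNAA, as in composite elements of ATF4 and C/EBP factors, occurred in the window of 5 of 12 synthetase genes (41.7%), against 2.8% of all tested genes with a window. The 150 bases before the start of Aars (chr8:111033692-111033841, plus strand, GRCm38.p6, RefSeq) are printed to show it, on the opposite strand and in capitals:
Aars: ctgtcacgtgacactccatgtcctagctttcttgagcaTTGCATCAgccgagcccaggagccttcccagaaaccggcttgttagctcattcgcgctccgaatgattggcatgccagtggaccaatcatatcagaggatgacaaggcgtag
The match begins 112 bases before the start. The regulators of the integrated stress response, of which ATF4 is the central factor, had no common direction. Of 19 tested 5 were higher (26.3%, against 24.8% of all genes) and 7 lower (36.8%, against 23.1%). Ddit4, an inhibitor of mTORC1, read 1928 and 2087 at 12 h, against 442 and 432 at 0 h (2.16 ± 0.08, adjusted p = 8.2e-11). Asns, asparagine synthetase, rose by 0.89 ± 0.10 and Chac1 by 1.45 ± 0.25. Cebpb fell by 2.47 ± 0.18 and Ppp1r15a, which encodes the phosphatase subunit GADD34, by 2.53 ± 0.14.

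Translation factors were higher in 27 of 41 tested and lower in 6 (median 0.38). Eef1e1, a component of the multisynthetase complex, rose by 1.66 ± 0.06, Eif1ax by 1.50 ± 0.05 and Eif4e, which binds the messenger cap, by 1.15 ± 0.09. Nuclear import and export genes were higher in 27 of 41 and lower in 4 (median 0.57), with Ranbp1, a Ran regulator, at 941 and 1068 at 12 h, against 188 and 253 at 0 h (2.12 ± 0.11, adjusted p = 2.8e-09). Among spliceosomal ribonucleoprotein core and assembly genes 26 of 35 were higher and 3 lower (median 0.80). Prmt1, the arginine methyltransferase, read 4347 and 4334 at 12 h, against 852 and 789 at 0 h (2.38 ± 0.07, adjusted p = 1.3e-11).

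Chaperones and the proteasome rose with few exceptions. Subunits of the chaperonin CCT and of prefoldin, which fold actin and tubulin, were higher in 12 of 14 tested and lower in 0 (median 0.86), with Cct6a at 1.15 ± 0.05 and Pfdn6 at 1.19 ± 0.07. Heat shock chaperones were higher in 20 of 27 and lower in 2 (median 0.66). Hspd1, the mitochondrial chaperonin, read 17860 and 17370 at 12 h, against 5131 and 5856 at 0 h (1.68 ± 0.06, adjusted p = 7.0e-11). Proteasome subunits were higher in 33 of 35 and lower in 0 (median 0.99). Psmb5, which carries the chymotrypsin-like site, read 10110 and 10120 at 12 h, against 3045 and 2999 at 0 h (1.74 ± 0.06, adjusted p = 2.5e-11). Of the 3 immunoproteasome subunits that replace standard ones 2 were lower: Psmb9 read 1184 and 1144 at 12 h, against 2992 and 2763 at 0 h (-1.29 ± 0.07, adjusted p = 3.2e-09), and Psmb10 fell by 1.005 ± 0.07 (adjusted p = 5.1e-08). The third, Psmb8, averaged 5721 ± 107 at 12 h and 5536 ± 98.2 at 0 h (SD, n = 2 each) and did not pass the test (adjusted p = 0.57).

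Genes of the unfolded protein response and ER folding had no such common direction, with 12 of 30 higher and 7 lower. Sec61b, of the translocation channel, rose by 1.26 ± 0.17, while Dnajb9, a chaperone induced by IRE1 signalling, fell by 1.80 ± 0.07 and Ero1b, an oxidase, by 1.59 ± 0.09. Genes of the NRF2 pathway and redox control were higher in 14 of 20 and lower in 2. Txn1, thioredoxin, rose by 1.48 ± 0.06, and Txnip, its inhibitor, read 1450 and 1583 at 12 h, against 3681 and 3871 at 0 h (-1.31 ± 0.07, adjusted p = 1.3e-09).

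Subunits of the respiratory chain mostly rose. Those of complex I were higher in 29 of 34 tested and lower in 1, with a median of 0.88 at 12 h and -0.07 at 2 h over the same 0 h arrays. Ndufa5 read 6476 and 7363 at 12 h, against 1997 and 2112 at 0 h (1.74 ± 0.08, adjusted p = 4.5e-10). ATP synthase subunits were higher in 16 of 16, with medians of 0.73 at 12 h and -0.14 at 2 h. Atp5g1, of the membrane rotor, had 771 and 767 at 0 h, 1490 and 1323 at 2 h and 2752 and 3051 at 12 h (12 h minus 0 h 1.89 ± 0.09, adjusted p = 6.3e-10). Complexes II to IV and cytochrome c were higher in 17 of 24 and lower in 3, with a median of 0.63 that became 0.29 under quantile normalization, and with Uqcr11 at 1.70 ± 0.07 and Cox7c the other way at -1.36 ± 0.16.

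Mitochondrial import genes were higher in 21 of 22 tested and lower in 1 (median 0.9997). Timm10, a small chaperone of the intermembrane space, read 3294 and 3447 at 12 h, against 801 and 882 at 0 h (1.98 ± 0.06, adjusted p = 1.8e-11). Mitochondrial ribosomal proteins were higher in 62 of 74 and lower in 3 (median 0.75). For tricarboxylic acid cycle and pyruvate dehydrogenase genes the counts were 15 of 23 higher and 4 lower. Idh3a rose by 1.76 ± 0.13, while Ogdh fell by 1.09 ± 0.12 and Pdk1, a kinase that inactivates pyruvate dehydrogenase, by 1.21 ± 0.12.

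Glycolysis and the pentose phosphate pathway were higher in 15 of 25 tested and lower in 3, with medians of 0.98 at 12 h and -0.13 at 2 h. Ldha, lactate dehydrogenase, had 3962 and 4620 at 0 h, 7247 and 7332 at 2 h and 11850 and 12460 at 12 h (12 h minus 0 h 1.50 ± 0.06, adjusted p = 3.2e-10). Tkt, transketolase, read 26170 and 28350 at 12 h, against 8621 and 8582 at 0 h (1.66 ± 0.05, adjusted p = 1.6e-11). Hk2, an inducible hexokinase, rose by 1.54 ± 0.11. The glucose transporter Slc2a1 was lower, with 526 and 518 at 12 h, against 1089 and 975 at 0 h (-0.96 ± 0.10, adjusted p = 2.6e-06), and 3 of its 3 probe sets were called lower.

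**Figure D5:**
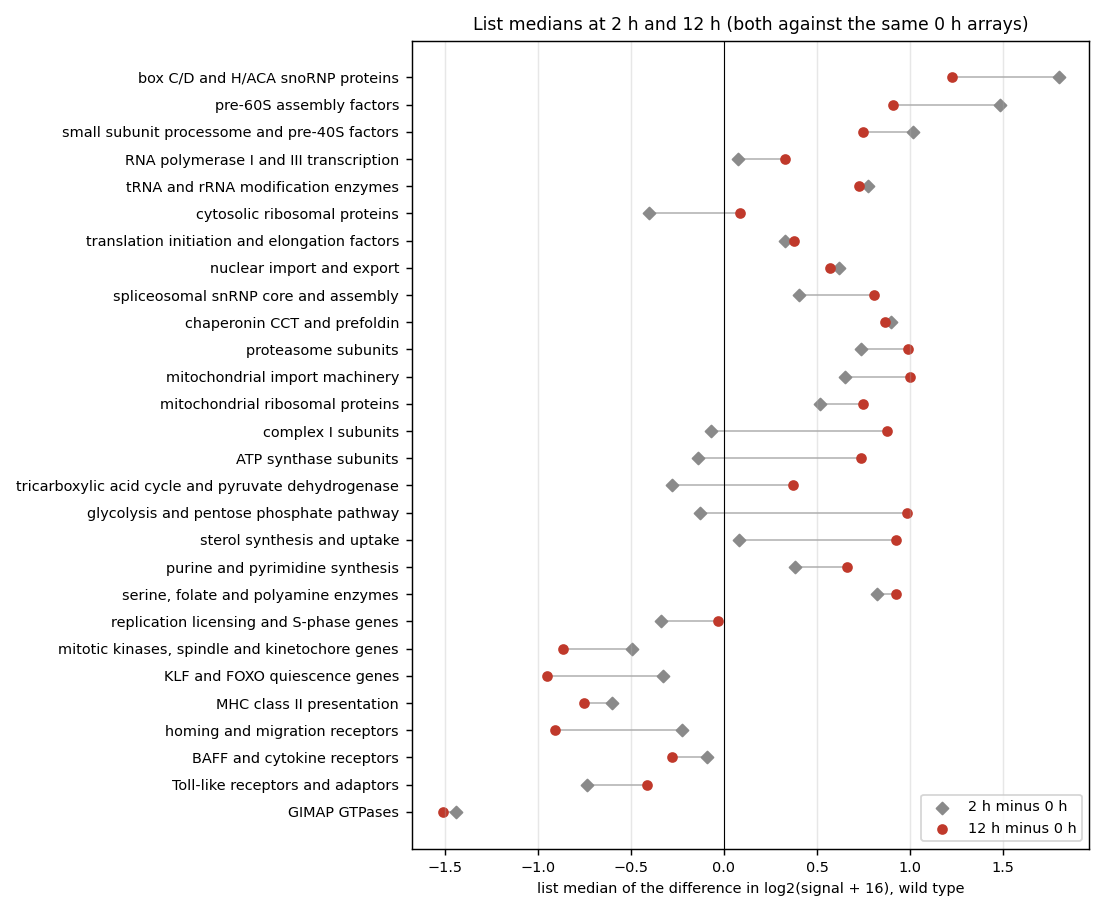
List medians of the difference from 0 h in log2(signal + 16) at 2 h (grey diamonds) and 12 h (red circles) for 28 gene lists; both differences share the 0 h arrays. Complex I, ATP synthase, glycolysis and sterol lists lie near 0 at 2 h and between 0.73 and 0.98 at 12 h, while the ribosome assembly lists are further right at 2 h than at 12 h.

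Most genes of sterol synthesis rose, and 2 sterol efflux pumps fell. Of 25 tested genes of sterol synthesis and uptake 19 were higher and 3 lower, with a median of 0.92. Hmgcs1, which makes the substrate of HMG-CoA reductase, had 3347 and 3530 at 0 h, 6848 and 6683 at 2 h and 18020 and 18680 at 12 h (12 h minus 0 h 2.41 ± 0.05, adjusted p = 2.3e-12). Idi1, the isopentenyl diphosphate isomerase, had 292 and 255 at 0 h, 1446 and 1303 at 2 h and 2358 and 2412 at 12 h (3.06 ± 0.13, adjusted p = 2.5e-10). Cyp51 and Sqle, later enzymes of the pathway, rose by 2.43 ± 0.15 and 2.11 ± 0.13. The 3 lower members have opposing roles: Mylip, which encodes a ubiquitin ligase that limits sterol uptake, read 1099 and 876 at 12 h, against 5534 and 5467 at 0 h (-2.47 ± 0.09, adjusted p = 1.1e-10), and the efflux pumps Abcg1 and Abca1 fell by 1.95 ± 0.10 and 1.15 ± 0.10. For Abca1 the call was lost when its probe sets were averaged (-0.32).

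The 200 bases before the start of Hmgcs1 and the 100 bases before that of Idi1 are shown because they hold letters known from sterol-regulated promoters. In capitals are the sterol regulatory element TCACNCCAC, which SREBP factors bind, and the CCAAT box, which NF-Y binds, read here on the opposite strand as ATTGG. They are from RefSeq on GRCm38.p6, at chr13:119690151-119690350 and chr13:8885506-8885605, both on the plus strand:
Hmgcs1: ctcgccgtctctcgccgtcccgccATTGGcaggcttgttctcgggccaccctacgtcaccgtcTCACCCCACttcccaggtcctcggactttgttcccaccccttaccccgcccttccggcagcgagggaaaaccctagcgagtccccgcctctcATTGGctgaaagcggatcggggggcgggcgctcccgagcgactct
Idi1: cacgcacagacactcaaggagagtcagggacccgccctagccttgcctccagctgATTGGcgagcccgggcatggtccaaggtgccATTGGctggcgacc
The sterol regulatory element of Hmgcs1 starts 137 bases before the gene's start, between CCAAT boxes at 176 and 45 bases. Those of Idi1 lie 45 and 14 bases before its start. In the 300-base windows, a CCAAT box on either strand was found for 18 of 20 sterol genes (90%), 42.5% of genes higher at least 2-fold, 43.1% of genes lower at least 2-fold and 42.4% of all tested genes. The sterol regulatory element in this spelling was found for 1 of the 20 (5%) and 1.44% of all tested genes.

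In fatty acid synthesis and desaturation 6 of 18 tested genes were higher (33.3%, against 24.8% of all genes) and 2 lower (11.1%, against 23.1%). Elovl1, an elongase, rose by 1.29 ± 0.06, and Scd1, the stearoyl-CoA desaturase, read 1323 and 1306 at 12 h, against 5217 and 5355 at 0 h (-1.995 ± 0.07, adjusted p = 7.5e-11). Enzymes of purine and pyrimidine synthesis were higher in 20 of 28 and lower in 2 (median 0.66). Atic, of the last purine steps, read 3588 and 3385 at 12 h, against 614 and 630 at 0 h (2.46 ± 0.09, adjusted p = 5.1e-11), and Ctps, CTP synthase, read 3823 and 4044 at 12 h, against 860 and 856 at 0 h (2.18 ± 0.06, adjusted p = 7.9e-12). Serine, folate and polyamine enzymes were higher in 13 of 20 and lower in 0 (median 0.92). Srm, spermidine synthase, rose by 2.05 ± 0.06, Mthfd2, of mitochondrial folate metabolism, by 2.11 ± 0.09 and Odc1, ornithine decarboxylase, by 1.25 ± 0.05.

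Among 19 tested amino acid transporters 5 were higher (26.3%, against 24.8% of all genes) and 2 lower (10.5%, against 23.1%). Slc7a5, the light chain of the leucine carrier, read 790 and 733 at 12 h, against 228 and 234 at 0 h (1.65 ± 0.14, adjusted p = 2.8e-07), and Slc3a2, its heavy chain, rose by 0.39 ± 0.06. Tfrc, the transferrin receptor that brings in iron, read 2402 and 2308 at 12 h, against 1069 and 1110 at 0 h (1.10 ± 0.06, adjusted p = 6.2e-09). Of 41 tested lysosome and autophagy genes 11 were higher (26.8%, against 24.8% of all genes) and 14 lower (34.15%, against 23.1%). The higher count ran from 5 to 13 over the alternatives. Ctse, a protease found in B cells and dendritic cells, fell by 2.14 ± 0.09, and Lamp2 rose by 1.09 ± 0.12.

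Most antigen presentation genes fell, and the size of the fall differed between members. Of 17 tested genes of MHC class II presentation 14 were lower and 1 higher, with a median of -0.75. Marchf1, the ubiquitin ligase that removes class II from the surface, read 255 and 245 at 12 h, against 2714 and 2723 at 0 h (-3.36 ± 0.17, adjusted p = 1.4e-09). H2-DMa, a chain of the peptide exchanger, read 1450 and 1507 at 12 h, against 8058 and 7991 at 0 h (-2.43 ± 0.06, adjusted p = 3.7e-12), and H2-Oa, a chain of the DM inhibitor, read 1383 and 1156 at 12 h, against 6185 and 6544 at 0 h (-2.32 ± 0.08, adjusted p = 5.1e-11). The groups stood far apart for all of these. Ciita, the class II transactivator, read 151 and 117 at 12 h, against 589 and 625 at 0 h (-2.06 ± 0.17, adjusted p = 1.6e-07). H2-Aa, a chain of the classical class II molecule, read 19900 and 16750 at 12 h, against 23090 and 27060 at 0 h (-0.45 ± 0.09, adjusted p = 5.6e-04), and 1 of its 4 probe sets was called higher. Monocytes, macrophages and dendritic cells also carry class II. Their marker sum was lower at 12 h, as was that of B cells, and the part of those cells in these falls was not tested.

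The 100 bases before the start of 5 class II genes are printed because they hold the CCAAT box, a piece of the conserved upstream block of class II promoters, which reads ATTGG on the gene's strand and is in capitals. They are from RefSeq on GRCm38.p6: H2-Oa at chr17:34092279-34092378, H2-Ob at chr17:34238805-34238904, H2-DMb2 at chr17:34145149-34145248 and H2-Eb1 at chr17:34305767-34305866 on the plus strand, and H2-Aa at chr17:34287824-34287923 on the minus strand:
H2-Oa: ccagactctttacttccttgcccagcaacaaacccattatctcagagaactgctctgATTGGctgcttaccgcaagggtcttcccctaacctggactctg
H2-Ob: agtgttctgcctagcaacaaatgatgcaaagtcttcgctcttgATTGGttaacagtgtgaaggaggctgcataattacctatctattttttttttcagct
H2-DMb2: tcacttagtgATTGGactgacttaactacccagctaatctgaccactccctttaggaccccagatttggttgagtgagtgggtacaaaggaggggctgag
H2-Aa: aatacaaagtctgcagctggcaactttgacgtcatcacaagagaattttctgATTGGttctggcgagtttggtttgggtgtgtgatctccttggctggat
H2-Eb1: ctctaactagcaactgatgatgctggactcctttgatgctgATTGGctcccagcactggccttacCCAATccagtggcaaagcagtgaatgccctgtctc
The box begins 43, 57, 90 and 48 bases before the start for H2-Oa, H2-Ob, H2-DMb2 and H2-Aa, and H2-Eb1 has it at 59 and, on the other strand, at 35 bases. H2-Ob fell by 1.50 ± 0.12, H2-DMb2 by 2.03 ± 0.06 and H2-Eb1 by 0.42 ± 0.05. A CCAAT box was in the window of 10 of 12 class II genes (83.3%), letters that 90% of the sterol genes also held.

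MHC class I and peptide loading genes were lower in 10 of 16 tested and higher in 3. H2-D1 fell by 1.01 ± 0.06, with 5 of its 5 probe sets called lower, H2-M3 by 1.29 ± 0.09 and Tap1, of the peptide pump, by 0.83 ± 0.08. Of 36 tested interferon response genes 26 were lower and 3 higher (median -0.81). Samd9l read 988 and 969 at 12 h, against 7735 and 7865 at 0 h (-2.97 ± 0.07, adjusted p = 2.3e-12), and Ddx58, which encodes the RNA sensor RIG-I, fell by 2.05 ± 0.12. All 8 GIMAP GTPases, lymphocyte proteins linked to survival, were lower, with a median of -1.51. Gimap7 read 446 and 557 at 12 h, against 6375 and 5988 at 0 h (-3.59 ± 0.10, adjusted p = 8.4e-12), and Gimap6 and Gimap4 fell by 2.30 ± 0.09 and 1.42 ± 0.06. GIMAP genes are also expressed in T cells, whose markers were lower at 12 h, as were those of B cells. The part of T cells in these falls was not tested.

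Activation and costimulation molecules were mixed, with 8 of 29 tested higher and 13 lower. Cd86, the costimulatory ligand of CD28, had 796 and 821 at 0 h, 3819 and 3815 at 2 h and 1251 and 1265 at 12 h (12 h minus 0 h 0.63 ± 0.07, adjusted p = 4.2e-06). Cd69, an early activation antigen, had 2453 and 2264 at 0 h, 2750 and 2750 at 2 h and 470 and 421 at 12 h (-2.36 ± 0.09, adjusted p = 6.6e-11). Cd69 was therefore lowest at 12 h, while Cd86 was above 0 h at both later times. Cd83 rose by 0.74 ± 0.06 and Icam1 by 0.50 ± 0.06. In the SLAM family of adhesion receptors, Slamf7 rose by 1.77 ± 0.14, and Slamf1 and Slamf6 fell by 2.31 ± 0.13 and 1.82 ± 0.08.

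Homing and migration receptors were lower in 14 of 24 tested and higher in 5, with a median of -0.91 at 12 h and -0.22 at 2 h. Itgb7, the integrin chain for gut homing, read 358 and 386 at 12 h, against 3370 and 3256 at 0 h (-3.10 ± 0.11, adjusted p = 5.5e-11), and Itga4, the alpha chain it pairs with, read 513 and 552 at 12 h, against 2396 and 2365 at 0 h (-2.13 ± 0.09, adjusted p = 2.9e-10). At 2 h Itgb7 read 252 and 238 and Itga4 378 and 356, lower than at 12 h and unlike the list median. Cnr2, the cannabinoid receptor of B cells, fell by 2.85 ± 0.21 and S1pr4 by 1.89 ± 0.07. Cxcr5, which directs B cells to follicles, had 1588 and 1509 at 0 h, 1631 and 1914 at 2 h and 629 and 616 at 12 h (-1.29 ± 0.08, adjusted p = 1.1e-08). Ccr7, which directs them to the T cell zone, had 854 and 774 at 0 h, 2002 and 2238 at 2 h and 782 and 848 at 12 h, and did not pass the test at 12 h (adjusted p = 0.99). S1pr1, the egress receptor, fell by 0.93 ± 0.18 (adjusted p = 6.3e-04).

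Cytokine receptors were lower in 12 of 26 tested and higher in 4. Il4ra read 237 and 243 at 12 h, against 716 and 736 at 0 h (-1.54 ± 0.16, adjusted p = 1.9e-06), and Il10ra fell by 1.71 ± 0.18. Tnfrsf1b, a receptor of tumour necrosis factor, rose by 1.03 ± 0.12. Toll-like receptors and adaptors were lower in 11 of 21 and higher in 3. Tlr1 read 68.5 and 74.8 at 12 h, against 416 and 342 at 0 h (-2.17 ± 0.21, adjusted p = 1.1e-06), and Tlr7 fell by 1.06 ± 0.21. Monocytes and neutrophils carry several of these receptors. Their marker sums were lower at 12 h, as was that of B cells, and the part of those cells in these falls was not tested.

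Secreted factors were higher in 10 of 23 tested and lower in 8. The chemokine Ccl4 had 172 and 187 at 0 h, 5945 and 6515 at 2 h and 1008 and 1157 at 12 h (12 h minus 0 h 2.49 ± 0.10, adjusted p = 1.7e-10). Ccl22, a chemokine for helper T cells, had 19.5 and 40.2 at 0 h, 21.6 and 21.96 at 2 h and 200.1 and 208 at 12 h (2.30 ± 0.26, adjusted p = 5.4e-06). Ccl4 was highest at 2 h, and Ccl22 was highest at 12 h. Ltb, the lymphotoxin chain that B cells use to maintain follicles, read 1182 and 1017 at 12 h, against 6369 and 6969 at 0 h (-2.59 ± 0.08, adjusted p = 1.3e-11). Il1b, a product of myeloid cells, fell by 2.41 ± 0.32. The sums of myeloid markers were lower too, as was that of B cell markers, and the part of myeloid cells in the fall of Il1b was not tested. Pim1 and Pim2, survival kinases downstream of STAT factors, rose by 1.09 ± 0.07 and 1.20 ± 0.15. Of 17 tested class switching and immunoglobulin genes 4 were higher (23.5%, against 24.8% of all genes) and 3 lower (17.65%, against 23.1%). Apex1 and Ung, of base excision repair, were at 1.70 ± 0.07 and 1.36 ± 0.11 and Jchain, the joining chain of secreted antibodies, at -1.69 ± 0.10.

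In cells labelled Zfx cko the same contrast of 12 h against 0 h called 3600 of the 5842 wild-type calls in the same direction, 885 in the opposite one and left 1357 uncalled. The test of the difference between the 12 h responses, Zfx cko minus wild type, called 5267 genes (43.2%). The Zfx cko arrays at 12 h lie on the other side of the control-probe division, so genotype and division cannot be told apart in these counts.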

How the data were processed

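Sorted follicular B cells were profiled on whole-genome mouse expression arrays, 2 for each of 6 groups of genotype and time. The RNA (100 ng) went through 2 rounds of amplification, per the labels' protocols. GCOS 1.4 is the software that the submitters' processing notes name. The authors deposited a linear signal intensity for each probe set on each array, whose mean without the top and bottom 2% was 250 on each array, as checked on the values. Detection calls were not used here, so dim signals are given as read.

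Of 45101 probe sets, those with 1 gene symbol in the platform annotation (34945) were used. Those with a mean log2(signal + 16) at or under the 40th percentile (5.14) were left out, which left 21905. The brightest probe set stood for each of 12190 genes. limma 3.58.1 (R 4.3.3) was fitted to all 12 arrays with 1 mean per group and eBayes with an intensity trend. Tests were two-sided, with Benjamini-Hochberg adjustment over the 12190 genes. The procedure was tested on simulated data in which 200 of 12190 genes were changed, far fewer than were called here. It recovered 28% of rises of 0.5 log2 units, 56% of rises of 1 and 84% of rises of 2. Of falls of 1 it recovered 68%. A gene that did not pass the test may therefore still have changed. The number of arrays limits the precision.

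The contrast, the 57 gene lists (1428 distinct genes tested), the 11 marker lists and the motifs were chosen with earlier results of these data known. Named genes are the 20 largest rises and 20 largest falls among called genes without overlap, the 6 called members of each list with the largest differences and a fixed set of key genes. Utp18, Wdr46 and H2-Eb1 were named outside this rule, for their promoter sequence, and Psmb8 to complete its group, all after their values were seen. Promoter windows are those of RefSeq on GRCm38.p6, searched on both strands. Alternatives were median scaling, quantile normalization, a pseudocount of 1 or 64, the filter left out or set at the 60th percentile, and no trend. Others were only the groups compared, a replicate block, the mean of probe sets and each 0 h or 12 h array left out in turn. The fit of only the 6 arrays on 1 side of the division was added after seeing the data.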

Additional observations from a re-analysis of the deposited data

Results flagged for a closer look

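Probe sets without a gene symbol were outside the gene comparison and also differed between 12 h and 0 h. Of 4486 such probe sets past the filter, 523 were called higher and 1093 lower at 12 h, 218 and 535 of them by at least 2-fold. Among the 12190 genes of the main comparison the calls were 3025 higher (24.8%) and 2817 lower (23.1%). The share of these probe sets called lower was near that of genes, while the share called higher was well below it.

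For 36 of 47 key genes tested (76.6%, against 43.2% of all genes; the key genes were chosen with earlier results known) the 12 h response in Zfx cko cells differed from that in wild-type cells by the test of the difference itself (interaction term, limma, adjusted p under 0.05). In every case the genotype and the control-probe division cannot be told apart, because the Zfx cko arrays at 12 h lie on the other side of the division. The difference of the responses, Zfx cko minus wild type in log2(signal + 16), was positive for Ccnd3 (1.98), Mki67 (1.72), Nr4a3 (1.31), Pcna (1.27), Ncl (1.18), Cdk4 (0.74), Klf2 (0.65), Fbl (0.56), Myc (0.52), Fcgr2b (0.49), Cd69 (0.49), Abca1 (0.46), Cd79b (0.45), Npm1 (0.33), Cxcr5 (0.32) and Egr1 (0.26). It was negative for Cd22 (-1.75), Cd83 (-1.47), Ldha (-1.22), S1pr1 (-1.15), Foxo1 (-1.08), Irf4 (-1.05), Hmgcs1 (-0.99), Fos (-0.90), Icam1 (-0.86), Zfx (-0.85), Bcl2l1 (-0.79), Mcl1 (-0.68), Egr2 (-0.67), H2-Aa (-0.66), Cdkn1b (-0.59), Cdkn1a (-0.53), Ccnd2 (-0.50), Bcl2 (-0.50), Ccr7 (-0.33) and Tfrc (-0.32). With probe sets averaged per gene, the difference turned to 0.54 for Cdkn1a and to 0.11 for Hmgcs1. Of the 36 calls, 17 were lost in at least 1 alternative, those of Cdkn1a, Cdkn1b and Cxcr5 in 10 alternatives each.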

How the results depend on the processing

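With all 12 arrays kept, the count of called genes (5842) ran from 5243 to 6046. The lowest came with probe sets averaged per gene and the highest with a pseudocount of 64. With each wild-type array of 0 h and 12 h left out in turn, the count ran from 5092 to 5208. At an unadjusted p under 0.05 the main fit gave 6459. The fit of only the 6 arrays on 1 side of the control-probe division called 5570. Genes lower by at least 2-fold numbered 721 with a pseudocount of 64, against 1093, since a larger pseudocount shrinks differences of dim genes. Median scaling gave 3701 higher and 2292 lower genes, or 61.8% of calls higher against 51.8%. For the difference between genotypes the calls (5267) ran from 4236 with probe sets averaged to 5507 with a pseudocount of 64, and from 4564 to 4852 with an array left out. Counts of list members called moved by over 1.5 times in 102 of 2040 list values. The replicate block called 5827 genes for 12 h against 0 h and 5253 for the difference between genotypes. Deviations of arrays with the same replicate number correlated between -0.01 and 0.01, so the numbers do not pair the arrays.

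Of 411 called named genes 377 kept their call and direction in every alternative run and 34 did not. With the mean of probe sets Nfatc2 turned to 0.12, Nme1 to -0.27 and Dtx1 to 0.14, and the differences between genotypes turned to 0.54 for Cdkn1a and 0.11 for Hmgcs1. Of 3298 called genes with several probe sets 346 had a probe set called the other way. The medians of 5 lists changed sign under another scaling, those for replication, cytosolic ribosomal, lysosome, class switching and plasma cell genes. Dim genes, many of the mitotic and Toll-like receptor genes among them, rest on signals of under 100 whose relation to background was not analysed here.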
